A study of Mus musculus with 8 samples.

Results

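Sertoli cell genes were followed in spermatocytes of the leptotene and zygotene (LZ) and the pachytene and diplotene (PD) stages, in WT and Cnot4-null mice. The 10 genes were chosen by name as genes of Sertoli cells, at a time when earlier results of these data were known: Sox9, Wt1, Gata4, Rhox8, Rhox5, Amh, Fshr, Cldn11, Clu and Ctsl. Of these, 9 had a row among the 23235 gene symbols, and Rhox5 was not analysed here. Values above 1 FPKM in at least 1 library, the condition for entering the test, were present for 7 of the 9, among 15899 tested genes in all.

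RNA was sequenced from spermatocytes of male C57BL/6 mice, with 2 libraries in each of 4 groups (WT LZ, Cnot4-null LZ, WT PD and Cnot4-null PD) and 8 in all. The labels call the genotypes WT and Cnot4-KO and give no allele for WT. According to the methods the mice were 6 weeks old, and the knockout was conditional (Cnot4 fl/fl;Stra8-Cre), with a Cre that acts in germ cells, so that Sertoli cells keep Cnot4 by design. Cells were sorted by their Hoechst and propidium iodide fluorescence, and pools of sorted cells were amplified with Smart-Seq2 according to the methods, whereas the labels name Trizol extraction and a TruSeq kit. Which preparation was used was not determined. The study calls the duplicates biological, and which mice a library came from is not stated, so p-values measure the spread between these libraries.

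Sertoli cells are the somatic cells of the seminiferous tubule that surround and nourish the developing germ cells. Their tight junctions form the blood-testis barrier, which spermatocytes cross as they pass from the leptotene stage towards pachytene. They respond to follicle-stimulating hormone and androgens, engulf residual bodies and dying germ cells, and secrete proteins such as clusterin into the tubule. A library of sorted spermatocytes is labelled as a germ cell sample, so these genes are read here as levels in the RNA of a sort and not as levels in Sertoli cells.

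Levels are given as FPKM, fragments scaled to transcript length and library size, so that levels of different genes can be compared. The low values were close to whole multiples of a single fragment (86.1 to 89.2% lay within 0.15 of a whole fragment), which gave an estimated depth between 4930000 fragments in Cnot4-null PD replicate 2 and 7940000 in WT PD replicate 2. The read totals that the study reports rank the libraries differently, with a Cnot4-null PD library as the one with the most reads, so the fragment numbers are estimates only. A value below 1 FPKM therefore rested on few fragments, and amplified fragments are not independent molecules. Fold changes and tests used log2(FPKM + 1), on which changes at low FPKM look smaller than they are, in a single limma model of the 8 libraries with Benjamini-Hochberg adjustment over all tested genes. A gene was called at an adjusted p under 0.05. With 2 libraries in a group, 0.333 is the smallest two-sided p of an exact permutation test.

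Cnot4, the targeted gene (mm9 chr6:34972066-35083737, minus strand), was at 36.0 and 34.9 FPKM in the WT LZ libraries, 43.2 and 34.6 in the Cnot4-null LZ libraries, 76.6 and 73.1 in the WT PD libraries, and 65.9 and 53.5 in the Cnot4-null PD libraries. The values overlapped between the genotypes at LZ, while at PD the Cnot4-null values were the lower ones, and neither difference was called (log2 fold change 0.12 and -0.33, adjusted p = 1.00 and 0.192). A single value per gene cannot show the loss of 1 exon, so Cnot4 did not check the genotype labels.

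**Figure D1:**
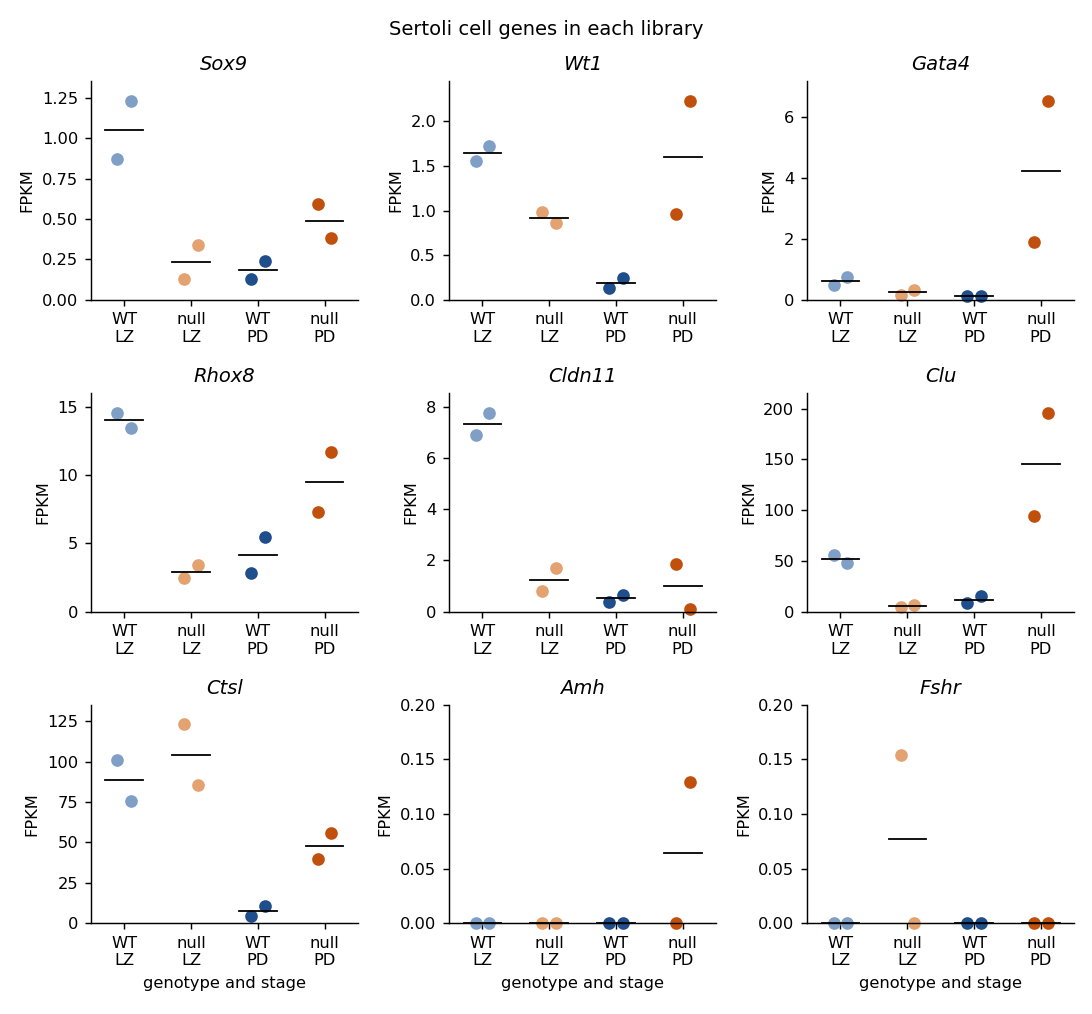
FPKM of the 9 Sertoli cell genes in each library, with 1 point per library, a line at the mean of the 2 libraries of a group, and an axis from 0 for each gene. Clu ran from 4.56 FPKM in a Cnot4-null LZ library to 196 in a Cnot4-null PD library, while Amh and Fshr were each above 0 in a single library.

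Sox9 encodes the transcription factor that directs the differentiation of Sertoli cells (chr11:112643538-112649074, plus strand). Its level was 0.868 and 1.23 FPKM in the WT LZ libraries, 0.127 and 0.336 in the Cnot4-null LZ libraries, 0.130 and 0.238 in the WT PD libraries, and 0.590 and 0.384 in the Cnot4-null PD libraries, from an estimated 3 to 32 fragments. Both WT LZ libraries were above the other 6, and the Cnot4-null LZ and WT PD libraries overlapped. Sox9 entered the test only through WT LZ replicate 2, the group in which it was high. Cnot4-null differed from WT by -0.73 on the log2 scale at LZ (standard error 0.25, adjusted p = 0.720). At PD the difference was 0.33 (standard error 0.25, adjusted p = 0.291), but -0.57 under quantile normalization and -0.01 when libraries were set to an equal median. From LZ to PD it fell by 0.79 in WT (log2 scale, standard error 0.25, adjusted p = 0.0292), a call that was lost without WT LZ replicate 2, WT PD replicate 1 or WT PD replicate 2 (adjusted p = 0.108, 0.138 and 0.0883) and under quantile normalization or equal medians (0.208 and 0.0644). In such pooled samples, fewer cells of a type and less RNA per cell cannot be told apart.

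Wt1 encodes a zinc finger transcription factor that Sertoli cells express from the fetal gonad to the adult testis (chr2:104966686-105013773, plus strand). It was at 1.56 and 1.73 FPKM in the WT LZ libraries, 0.979 and 0.866 in the Cnot4-null LZ libraries, 0.133 and 0.244 in the WT PD libraries, and 0.967 and 2.23 in the Cnot4-null PD libraries. The WT PD values, from about 3 and 6 fragments, were the lowest, and the Cnot4-null PD values overlapped with both LZ groups. At PD, Wt1 was higher in Cnot4-null than in WT by 1.09 on the log2 scale (standard error 0.30, adjusted p = 0.0204), but the direction turned under quantile normalization (log2 fold change -0.15), and with equal medians it was not called (0.60, adjusted p = 0.0915). Its call was also lost without WT PD replicate 1 or 2 (adjusted p = 0.115 and 0.0876), and without Cnot4-null PD replicate 2 the log2 fold change was 0.73. At LZ the log2 fold change was -0.46 (adjusted p = 0.915). In WT, Wt1 fell by 1.16 from LZ to PD (adjusted p = 0.0128), which was not called without WT LZ replicate 2, WT PD replicate 1 or WT PD replicate 2 (adjusted p = 0.0549, 0.0826 and 0.0586).

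Gata4, a zinc finger transcription factor of Sertoli cells and of other somatic cells of the testis such as Leydig cells (chr14:63817759-63890529, minus strand), had another order of levels. It was at 0.488 and 0.738 FPKM in the WT LZ libraries, 0.156 and 0.323 in the Cnot4-null LZ libraries, 0.120 and 0.110 in the WT PD libraries, and 1.90 and 6.52 in the Cnot4-null PD libraries. The Cnot4-null PD libraries were above the other 6 and differed between themselves by more than 3 times. Gata4 passed the condition of 1 FPKM only through these libraries. At PD, Gata4 rose by 2.07 on the log2 scale in Cnot4-null (standard error 0.44, adjusted p = 0.00724), by 1.38 without Cnot4-null PD replicate 2, and it was not called without WT PD replicate 2 (adjusted p = 0.0525) or under quantile normalization (0.97, adjusted p = 0.0950). In Cnot4-null it rose by 1.92 from LZ to PD (adjusted p = 0.0105), and without Cnot4-null LZ replicate 1 or 2 or under quantile normalization it was not called (adjusted p = 0.0675, 0.0506 and 0.0728). In WT the log2 fold change from LZ to PD was -0.53 (adjusted p = 0.348).

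Rhox8 is a homeobox gene of the X chromosome that is expressed in Sertoli cells (chrX:35227957-35232121, minus strand). It was above 1 FPKM in each library, at 14.6 and 13.5 FPKM in the WT LZ libraries, 2.49 and 3.38 in the Cnot4-null LZ libraries, 2.81 and 5.5 in the WT PD libraries, and 7.28 and 11.7 in the Cnot4-null PD libraries. The WT LZ libraries were the highest and the Cnot4-null PD libraries came next, while the other groups overlapped. The mean in Cnot4-null LZ was 0.209 of that in WT LZ, a log2 fold change of -1.94 (standard error 0.35) whose adjusted p was 0.312 (0.198 to 0.890 over the alternatives). From LZ to PD, Rhox8 fell by 1.60 in WT (adjusted p = 0.00556) and rose by 1.39 in Cnot4-null (adjusted p = 0.0149). Both calls were lost under quantile normalization (adjusted p = 0.0559 and 0.0768) and with equal medians (0.0754 and 0.0767). The call in WT was also lost without WT PD replicate 1 (adjusted p = 0.0516), and that in Cnot4-null without Cnot4-null LZ replicate 1 or Cnot4-null PD replicate 2 (adjusted p = 0.0910 and 0.0722). At PD, Rhox8 was 1.04 higher in Cnot4-null on the log2 scale (adjusted p = 0.0382), but the log2 fold change was -0.03 under quantile normalization and -0.19 with equal medians. That call was kept in 2 of the 8 fits that left out 1 library.

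Amh, the hormone by which fetal Sertoli cells bring about the loss of the Müllerian ducts and which declines at puberty (chr10:80267993-80270393, plus strand), was listed at 0 in 7 libraries and at 0.129 FPKM in Cnot4-null PD replicate 2, about 1 fragment. Fshr, the receptor for follicle-stimulating hormone (chr17:89384292-89600015, minus strand), was listed at 0 in 7 libraries and at 0.154 FPKM in Cnot4-null LZ replicate 1, about 2 fragments. Neither was tested. Their levels were not detectable at this depth in most libraries.

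Cldn11 encodes claudin 11, a membrane protein of the tight junctions between Sertoli cells (chr3:31048868-31063246, plus strand). It was at 6.90 and 7.76 FPKM in the WT LZ libraries, 0.798 and 1.68 in the Cnot4-null LZ libraries, 0.384 and 0.633 in the WT PD libraries, and 1.86 and 0.113 in the Cnot4-null PD libraries. Both WT LZ libraries were above the other 6 by more than 3 times, and the Cnot4-null PD libraries, at about 21 fragments and 1 fragment, lay on either side of the WT PD libraries. The mean in Cnot4-null LZ was 0.169 of that in WT LZ, a log2 fold change of -1.92 (standard error 0.46) that was not called (adjusted p = 0.550, from 0.190 to 1.00 over the alternatives). Cldn11 fell by 2.47 from LZ to PD in WT (adjusted p = 0.00268) and was called in each of the 13 alternatives. The genotype difference at PD was 0.25 (adjusted p = 0.664), with -0.43 without Cnot4-null PD replicate 1, -0.78 under quantile normalization and -0.29 with equal medians.

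Clu encodes clusterin, a secreted chaperone and a main product of Sertoli cells that other somatic cells also make (chr14:66587320-66600385, plus strand). Its level was 55.9 and 47.4 FPKM in the WT LZ libraries, 4.56 and 6.88 in the Cnot4-null LZ libraries, 8.06 and 15.3 in the WT PD libraries, and 94.6 and 196 in the Cnot4-null PD libraries, from at least 46 estimated fragments. No groups overlapped, and the order was Cnot4-null PD, WT LZ, WT PD and Cnot4-null LZ. At LZ the mean in Cnot4-null was 0.111 of that in WT, a log2 fold change of -2.99 (standard error 0.42) whose adjusted p was 0.136 (0.0670 to 0.708 over the alternatives). At PD, Clu rose by 3.5 in Cnot4-null against WT (standard error 0.42, adjusted p = 0.000733), 12.4 times by the group means. With 1 library left out Clu rose there by 2.98 to 4.02, and under the other alternatives by 2.12 to 3.60. From LZ to PD it fell by 2.11 in WT (adjusted p = 0.00361) and rose by 4.37 in Cnot4-null (adjusted p = 0.000480). The calls of Clu in these 3 comparisons held in each of the 13 alternatives.

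Ctsl encodes cathepsin L, a lysosomal protease that Sertoli cells produce and many other cells express (chr13:64464522-64471614, minus strand). It was at 101 and 75.9 FPKM in the WT LZ libraries, 123 and 85.5 in the Cnot4-null LZ libraries, 4.64 and 11 in the WT PD libraries, and 39.9 and 55.7 in the Cnot4-null PD libraries. The LZ libraries of both genotypes overlapped, both WT PD libraries were the lowest, and the Cnot4-null PD libraries lay between. At LZ the log2 fold change was 0.23 (standard error 0.39, adjusted p = 1.00), and -0.03 without Cnot4-null LZ replicate 1. Ctsl fell by 3.43 from LZ to PD in WT (adjusted p = 0.000255) and rose by 2.55 at PD in Cnot4-null against WT (adjusted p = 0.00203), both in each of the 13 alternatives. The rise of Ctsl at PD was 2.01 to 3.09 with 1 library left out, and 1.22 to 2.71 under the other alternatives. In Cnot4-null its log2 fold change from LZ to PD was -1.11 (adjusted p = 0.0531), and it was called under quantile normalization and with equal medians (adjusted p = 0.0337 and 0.00919) and without WT PD replicate 1 or 2 (adjusted p = 0.0330 and 0.0333).

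Cldn11 and Ctsl both fell from LZ to PD in WT, while the ratio of their means between Cnot4-null LZ and WT LZ was 0.169 and 1.18, and their upstream sequences are shown for this contrast. RefSeq entries (GRCm38.p6) were matched for 3 of the 9 genes, Cldn11, Ctsl and Fshr. The 250 bases before the start of Cldn11 (chr3:31149670-31149919, plus strand) and of Ctsl (chr13:64370521-64370770, minus strand) were searched on both strands for the letters GATA, for the NR5A1 motif AAGGTCA, and for a pair of SOX motifs, ACAATG or, in a variant form, ACAAAG, and no matches overlapped. Capitals mark the matches.
Cldn11: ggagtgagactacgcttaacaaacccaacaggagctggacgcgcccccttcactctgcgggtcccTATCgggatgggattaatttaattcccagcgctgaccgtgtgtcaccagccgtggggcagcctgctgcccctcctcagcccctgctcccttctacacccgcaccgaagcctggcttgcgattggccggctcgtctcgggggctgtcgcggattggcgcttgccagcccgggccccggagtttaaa
Ctsl: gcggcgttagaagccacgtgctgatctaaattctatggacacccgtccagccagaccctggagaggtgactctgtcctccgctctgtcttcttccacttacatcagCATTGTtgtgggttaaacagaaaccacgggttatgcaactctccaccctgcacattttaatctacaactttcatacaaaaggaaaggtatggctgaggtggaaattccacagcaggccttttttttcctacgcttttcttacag
Cldn11 had 1 match, to GATA in reverse orientation, and Ctsl had 1, to ACAATG in reverse orientation. Of 32851 promoters of this length, 53.6% held GATA, 4.08% AAGGTCA, 10.7% ACAATG and 16.5% ACAAAG. The matches describe letters and not binding.

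Within each group the genes differed in level by more than 2 orders of magnitude. In WT LZ the order was Ctsl, Clu, Rhox8, Cldn11, Wt1, Sox9 and Gata4, with no overlap between neighbours. In Cnot4-null LZ, Ctsl was followed at a distance by Clu and Rhox8, Wt1 lay within the range of Cldn11, and Sox9 and Gata4 overlapped. Clu, Ctsl and Rhox8 were the highest in WT PD, where Clu and Ctsl overlapped, as did Ctsl and Rhox8, and also Wt1 and Sox9. In Cnot4-null PD the order began with Clu, Ctsl and Rhox8, which did not overlap, whereas Gata4, at 4.21 FPKM on average, overlapped with Wt1, and Cldn11 overlapped with Wt1 and Sox9. Ctsl made up 93.0 and 86.4% of the summed FPKM of the 9 genes in Cnot4-null LZ, against 55.6 and 51.2% in WT LZ. Without Ctsl the sum was 80.3 and 72.4 FPKM in the WT LZ libraries, 9.27 and 13.5 in the Cnot4-null LZ libraries, 11.6 and 22 in the WT PD libraries, and 107 and 217 in the Cnot4-null PD libraries.

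At LZ, the levels of Clu, Rhox8, Cldn11, Sox9, Wt1 and Gata4 were lower in each Cnot4-null library than in either WT library, and those of Ctsl overlapped. Of all tested genes, 18.0% were lower in this way. None of the 7 tested Sertoli cell genes was called by limma in either direction, in a comparison in which 0.0692% of the tested genes were called higher and 0.0252% lower. At an unadjusted p under 0.05, 4 of the 7 were lower (Clu, Rhox8, Cldn11 and Sox9, unadjusted p = 0.000159, 0.000710, 0.00381 and 0.0211) and 0 higher, where 6.37% of all tested genes passed in either direction. Sox9 was in the test only because it was high in a WT LZ library, so its difference does not add to this count as support. None of these differences passed the adjustment over 15899 genes.

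At PD, Clu, Ctsl, Gata4, Wt1 and Rhox8 were called higher in Cnot4-null, 5 of the 7 tested, and 0 were called lower. Gata4 was tested only because it was high in Cnot4-null PD, so its call was favoured by the filter. Among all tested genes 41.6% were called higher and 11.5% lower, and 58.2% were higher in both libraries, so that a higher call at PD was not particular to these genes. The median log2 fold change of all tested genes was 0.66, and relative to it the change was 2.83 for Clu, 1.89 for Ctsl, 1.40 for Gata4, 0.42 for Wt1, 0.38 for Rhox8, -0.34 for Sox9 and -0.42 for Cldn11. Under quantile normalization 2 of the 7 were called higher, beside 17.8% of all tested genes higher and 25.6% lower, and with equal medians 3, beside 23.4% and 40.1%. The direction of Sox9, Cldn11 and Rhox8 turned under both of these scalings, and that of Wt1 under quantile normalization. The plot of genotype differences shows each value with its standard error.

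**Figure D2:**
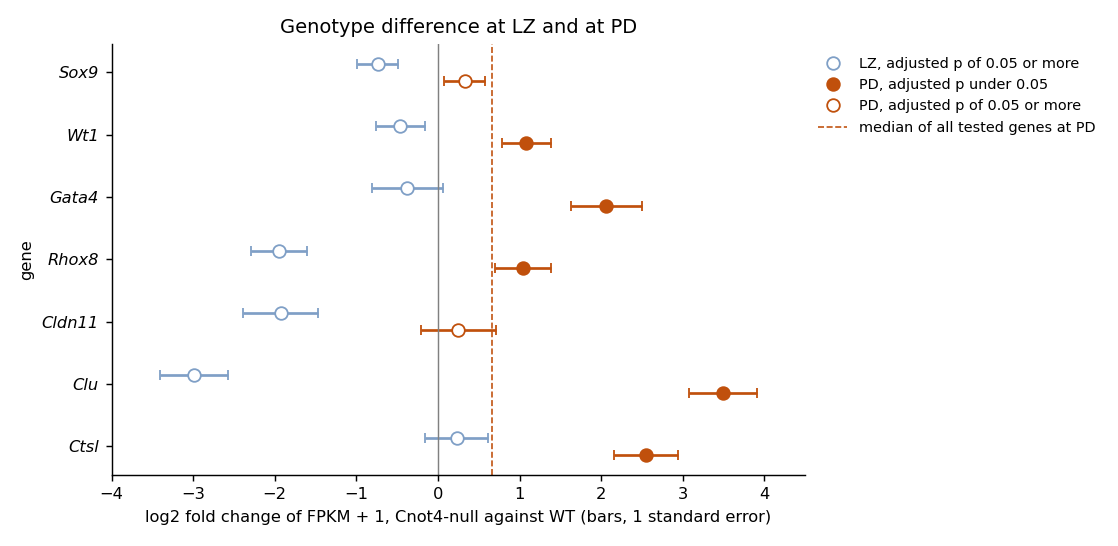
Log2 fold change of FPKM + 1 between Cnot4-null and WT at LZ and at PD for the 7 tested Sertoli cell genes, with bars of 1 standard error from limma and filled points for an adjusted p under 0.05. Clu was at -2.99 at LZ and 3.5 at PD, and the values of Sox9, Wt1, Rhox8 and Cldn11 at PD turned in direction under at least 1 other scaling.

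From LZ to PD in WT, Ctsl, Cldn11, Clu, Rhox8, Wt1 and Sox9 fell, 6 of the 7 tested, and 0 rose, with Sox9 tested only through a WT LZ library. Among all tested genes 36.2% fell and 21.6% rose, with a median log2 fold change of -0.32, whereas with equal medians rises made up 54.7% of the calls and the median was 0.05. The falls kept their direction under both other scalings. Falls were called for 4 genes under quantile normalization, beside 30.3% of all tested genes, and for 4 with equal medians, beside 26.9%, and Sox9 and Rhox8 were missing from both. In Cnot4-null, Clu, Gata4 and Rhox8 rose from LZ to PD and 0 of the 7 fell, beside 27.8% of all tested genes that rose and 18.2% that fell. The filter favoured the rise of Gata4, which was tested only through the Cnot4-null PD libraries. The balance over all genes also turned, as rises made up 60.5% of these calls, 37.4% under quantile normalization and 39.1% with equal medians. Under quantile normalization the log2 fold changes of Sox9 and Wt1 in this comparison turned from 0.27 and 0.39 to -0.34 and -0.46. There 1 of the 7 was called higher (Clu) and 1 lower (Ctsl), beside 18.7% and 31.4% of all tested genes, and with equal medians 2 higher (Clu and Gata4) and 1 lower (Ctsl), beside 21.0% and 32.6%. The LZ and PD comparisons of one genotype share libraries with the comparisons between genotypes, so their values are given side by side and are not counted as separate evidence.

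The genotype effect differed between the stages, by the interaction in the same model, for Clu, Rhox8, Gata4, Ctsl, Cldn11 and Wt1, 6 of the 7 tested, and each difference was towards higher values at PD. The filter favoured 2 of these calls, since Gata4 was tested only through Cnot4-null PD libraries and Wt1 only through WT LZ and Cnot4-null PD libraries, the groups that raise this difference. With no filter the calls were those of Clu, Rhox8 and Sox9. Among all tested genes 26% were called in this direction and 3.97% in the other, but this balance turned with the scaling, with 9.74% higher and 12.4% lower under quantile normalization, where 2 of the 7 were called, and 13.7% and 32.3% with equal medians, where 3 were. The difference was largest for Clu, at 6.48 on the log2 scale (standard error 0.59, adjusted p = 0.00136), followed by Rhox8 at 2.99 (standard error 0.49, adjusted p = 0.00589), and the median over all tested genes was 0.64 (-0.13 and -0.30 under these scalings). These interactions of Clu and Rhox8 were called in each of the 13 alternatives. Those of Wt1, Gata4, Cldn11 and Ctsl were lost in most fits without 1 library and after several other choices, with adjusted p up to 0.652, 0.152, 0.206 and 0.193. Sox9 had a difference of 1.06 (adjusted p = 0.0590).

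A further 22 genes known from Sertoli cells were listed, all with a row and 20 tested. At LZ, 0 of the 20 were called, and 16 had a log2 fold change below 0, with a median of -0.74 against 0 over all tested genes. At an unadjusted p under 0.05, 10 were lower and 1 was higher, where 6.37% of all tested genes passed in either direction. Cst12, a cystatin of Sertoli cells and the most abundant of the list, was at 93.2 and 85.6 FPKM in the WT LZ libraries and at 8.27 and 8.61 in the Cnot4-null LZ libraries, without overlap. Amhr2, the receptor for the Amh hormone, was at 8.75 and 7.34 FPKM in the WT LZ libraries and at 0.668 and 2.36 in the Cnot4-null LZ libraries. The summed FPKM of the list was 277 and 286 in the WT LZ libraries, 75.6 and 65.1 in the Cnot4-null LZ libraries, 66.3 and 122 in the WT PD libraries, and 135 and 190 in the Cnot4-null PD libraries.

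At PD the 22 genes went different ways. Of the 20 tested, 10 were called higher in Cnot4-null and 2 lower, shares close to the 41.6% and 11.5% of all tested genes, with a median log2 fold change of 1.02 against 0.66 over all tested genes, and under quantile normalization 3 were called higher and 3 lower (all tested genes 17.8% and 25.6%), with a median of -0.05. With equal medians 6 were called higher and 4 lower (all tested genes 23.4% and 40.1%). The filter favoured the higher calls of genes such as Kitl and Krt18, which were tested only through Cnot4-null PD libraries. Vim, the intermediate filament protein of Sertoli and other mesenchymal cells, was at 1.18 and 2.30 FPKM in the WT PD libraries and at 21.7 and 57.0 in the Cnot4-null PD libraries (log2 fold change 3.76, adjusted p = 0.000821). Inha, the inhibin alpha subunit by which the testis restrains follicle-stimulating hormone, rose from 1.22 and 2.98 FPKM to 6.65 and 19.1 (log2 fold change 2.06, adjusted p = 0.0144), a call lost under quantile normalization and with equal medians (adjusted p = 0.206 and 0.156). Cst12 was at 8.24 and 36.7 FPKM in the WT PD libraries and at 18.6 and 4.42 in the Cnot4-null PD libraries, and Cst9 at 11.4 and 25.6 in the WT PD libraries and at 16.4 and 3.92 in the Cnot4-null PD libraries, and neither was called (adjusted p = 0.349 and 0.198). The lower calls were those of Cdh2, the adhesion protein N-cadherin (log2 fold change -1.36, adjusted p = 0.00256), and Dhh, the signal of Sertoli cells to Leydig cells (log2 fold change -1.16, adjusted p = 0.00786). Dhh was tested only through the WT PD libraries, so the filter favoured its call. Cdh2 and Dhh were also the only 2 of the 20 called higher from LZ to PD in WT, where 9 were called lower. Among all tested genes 21.6% rose and 36.2% fell there, and that comparison shares the WT PD libraries.

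**Figure D3:**
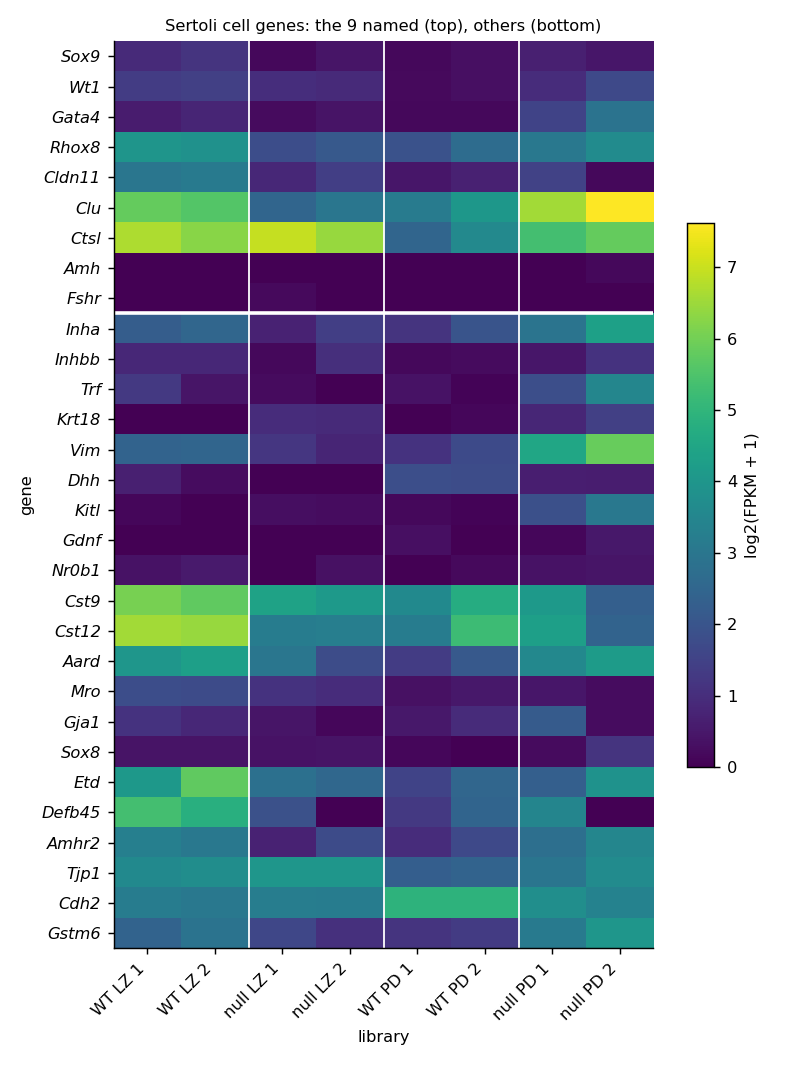
Log2(FPKM + 1) of the 9 Sertoli cell genes (top) and further genes of Sertoli cells (bottom) in each of the 8 libraries. Cst12, Cst9 and Cldn11 were highest in WT LZ, and Clu, Vim and Kitl in Cnot4-null PD.

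The genes also differed in their proportions within a library. Rhox8, like Clu and Ctsl, was above 1 FPKM in all 8 libraries. Other genes were set against Rhox8, a choice made after the values were seen and given without a test. The ratio of Clu to Rhox8 was 3.83 and 3.51 in the WT LZ libraries, 1.83 and 2.04 in the Cnot4-null LZ libraries, 2.87 and 2.78 in the WT PD libraries, and 13.0 and 16.7 in the Cnot4-null PD libraries. The Gata4 to Rhox8 ratio was 0.0201 to 0.0956 in the other 6 libraries and 0.261 and 0.557 in Cnot4-null PD. For Cst9 the ratio was 3.93 to 8.04 in the other 6 libraries and 2.26 and 0.335 in Cnot4-null PD, on the other side. Cldn11 to Rhox8 was 0.473 and 0.575 in the WT LZ libraries, 0.320 and 0.496 in the Cnot4-null LZ libraries, 0.137 and 0.115 in the WT PD libraries, and 0.256 and 0.00969 in the Cnot4-null PD libraries. Ctsl to Rhox8 was 49.4 and 25.3 in the Cnot4-null LZ libraries and 1.65 to 6.90 in the other 6 libraries. In the Cnot4-null PD libraries Clu, Gata4 and Vim were thus higher against Rhox8 than in any other library, and Cst9 lower.

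**Figure D4:**
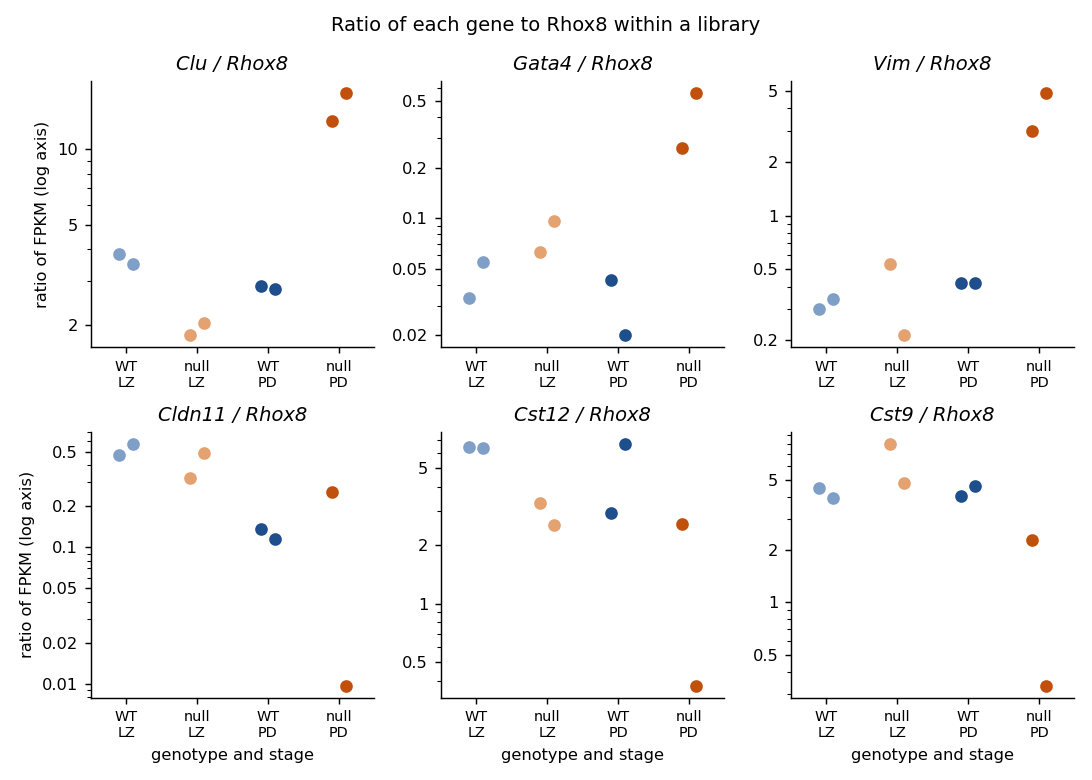
Ratio of the FPKM of Clu, Gata4, Vim, Cldn11, Cst12 and Cst9 to that of Rhox8 within each library, on log axes that differ between the genes, with 1 point per library. The ratio of Clu was 13.0 and 16.7 in Cnot4-null PD and 1.83 to 3.83 in the other 6 libraries.

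Other genes with the roles of the Sertoli cell genes were listed as well. Of 11 tested transcription and signalling genes of sex determination, which include Sox9, Wt1 and Gata4, 5 were called higher at PD and 0 lower, beside 41.6% and 11.5% of all tested genes, and 0 were called at LZ. Under quantile normalization 3 were called higher and 2 lower, beside 17.8% and 25.6%. Among them Ptgds, a prostaglandin D synthase that acts with Sox9, was at 16.0 and 1.37 FPKM in the WT PD libraries and at 866 and 1920 in the Cnot4-null PD libraries, and Dmrt1, of Sertoli cells and spermatogonia, at 1.88 and 1.03 against 48.1 and 95.7. The filter favoured the call of Gata4, tested only through the Cnot4-null PD libraries. Sry, also on this list, was at 0 in each library and was not tested. Of the 12 junction genes 7 were called higher and 2 lower at PD, beside the same 41.6% and 11.5%, and 2 and 2 under quantile normalization, beside 17.8% and 25.6%. The largest rise was that of F11r (junctional adhesion molecule A), which was at 1.29 and 1.24 FPKM in the WT PD libraries and at 20.7 and 22.8 in the Cnot4-null PD libraries. The summed FPKM of the junction genes was 51.5 and 47.5 in WT LZ and 53.6 and 57.6 in Cnot4-null LZ, unlike Cldn11 alone.

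The cathepsin and lysosome list accompanied Ctsl. Of its 14 genes 10 were called higher at PD in Cnot4-null and 1 lower, beside 41.6% and 11.5% of all tested genes, with a median log2 fold change of 2.56 against 0.66. Under quantile normalization 8 were called higher and 0 lower, beside 17.8% and 25.6%. From LZ to PD in WT 8 fell, beside 36.2% of all tested genes. Ctsd, the aspartic protease cathepsin D, was at 151 and 96.5 FPKM in the WT LZ libraries, 115 and 97.5 in the Cnot4-null LZ libraries, 1.98 and 0.938 in the WT PD libraries, and 50.3 and 90.4 in the Cnot4-null PD libraries. Like Ctsl, Ctsd thus overlapped between the genotypes at LZ and was lowest in WT PD. The lower call was Lamp1, a lysosomal membrane protein and the most abundant of the list, with 217 and 225 FPKM in the WT PD libraries against 158 and 126 in the Cnot4-null ones.

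Of 13 tested genes of follicle-stimulating hormone, androgen and inhibin signalling, 7 were called higher at PD and 1 lower, beside 41.6% and 11.5% of all tested genes, and 0 at LZ. Calls of genes such as Socs3, which was tested only through the Cnot4-null PD libraries, were favoured by the filter. Under quantile normalization 4 of the 13 were called higher and 2 lower at PD, beside 17.8% and 25.6%. In the Rhox cluster, 12 of 13 genes had a row and 10 were tested, of which 6 were called higher at PD and 0 lower, and 3 and 0 under quantile normalization, beside these shares. Rhox13, a germ cell member of the cluster and its most abundant gene, was at 181 and 206 FPKM in the WT LZ libraries, 225 and 212 in the Cnot4-null LZ libraries, 0.610 and 0.782 in the WT PD libraries, and 22.9 and 7.92 in the Cnot4-null PD libraries. Rhox8 was called higher from LZ to PD in Cnot4-null, whereas Rhox13, Rhox2a, Rhox1, Rhox7 and Rhox9 were called lower there. At LZ, 8 of the 10 had a log2 fold change above 0, and Rhox8 was among the 2 below 0.

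Markers of other cells of the testis moved with the libraries in which the Sertoli cell genes were high at PD, where 41.6% of all tested genes were called higher and 11.5% lower (17.8% and 25.6% under quantile normalization, 23.4% and 40.1% with equal medians). All 8 Leydig cell markers were called higher in Cnot4-null PD than in WT PD, also under quantile normalization and with equal medians, and their summed FPKM was 17.2 and 9.89 in the WT LZ libraries, 10.8 and 19.0 in the Cnot4-null LZ libraries, 116 and 7.07 in the WT PD libraries, and 10082 and 22306 in the Cnot4-null PD libraries. Insl3, a hormone of Leydig cells, held most of this sum, with 9669 and 21608 FPKM in Cnot4-null PD. The filter favoured the calls of Hsd3b1, Hsd3b6, Lhcgr and Hsd17b3, which were tested only through the Cnot4-null PD libraries. Of the 8 peritubular myoid markers 8 were called higher at PD, with sums of 196 and 650 FPKM in Cnot4-null against 9.28 and 6.48 in WT, led by Myl9 at 85.4 and 293 FPKM. Myh11, Des and Cnn1 were tested only through the Cnot4-null PD libraries, so the filter favoured their calls. Of 8 tested macrophage markers 5 were called higher (1 under quantile normalization), with sums of 47.1 and 159 FPKM against 3.66 and 1.92, and the most abundant, Lyz2, was not called (adjusted p = 0.0595). Csf1r, which was called, and Emr1, which was not, were tested only through Cnot4-null PD replicate 2. The filter thus favoured the call of Csf1r. Endothelial markers, 3 of them tested and 2 called higher (1 under quantile normalization), summed to 10.2 and 19.3 FPKM against 0.455 and 0.281, but these sums were higher at LZ, at 21.2 and 25.8 FPKM in WT and 24.4 and 21.3 in Cnot4-null. Most of them came from Egfl7, which was called lower from LZ to PD in both genotypes, so this list does not follow the Cnot4-null PD libraries alone. Cdh5, the other called gene, and Tek, which was not called, were tested only through Cnot4-null PD libraries. The filter thus favoured the call of Cdh5. In each of these lists the Cnot4-null PD replicate 2 value was the higher one, as it was for Clu, Gata4, Wt1, Rhox8, Ctsl and Inha, while Sox9, Cldn11, Cst9, Cst12, Defb45, Gja1, Mro, Cdh2 and Dhh were lower in that library than in replicate 1.

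Germ cell markers moved at PD too, read against the same shares of all tested genes (41.6% higher and 11.5% lower, 17.8% and 25.6% under quantile normalization, 23.4% and 40.1% with equal medians). All 8 spermatid markers were called higher in Cnot4-null PD, with sums of 16155 and 7550 FPKM against 433 and 279 in WT PD, led by Prm1. The 9 spermatogonial markers were all called higher (7 under quantile normalization), with sums of 352 and 473 FPKM against 20.6 and 13.7, led by Uchl1. Of 10 tested PD spermatocyte markers 5 were called lower and 0 higher (10 and 0 with equal medians), with sums of 5637 and 2003 FPKM against 12802 and 11907. The most abundant of them, Ldhc, was not among the 5 called (log2 fold change -1.96, adjusted p = 0.0568). Of 10 LZ spermatocyte markers 4 were called higher and 4 lower, with sums of 1273 and 819 FPKM against 1533 and 1550, led by Sycp3. At LZ no list had a called gene. There the Leydig sums overlapped between the genotypes, the macrophage sums were 46.1 and 2.1 FPKM in WT and 21.3 and 2.53 in Cnot4-null, and the myoid sums were 15.2 and 30.8 FPKM in WT and 10.7 and 5.56 in Cnot4-null. Dmrt1 is on both the spermatogonial and the sex determination list, and some markers, such as Vim and Gata4, are expressed by several somatic cell types. The part of other cells in the levels of the Sertoli cell genes was not tested.

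**Figure D5:**
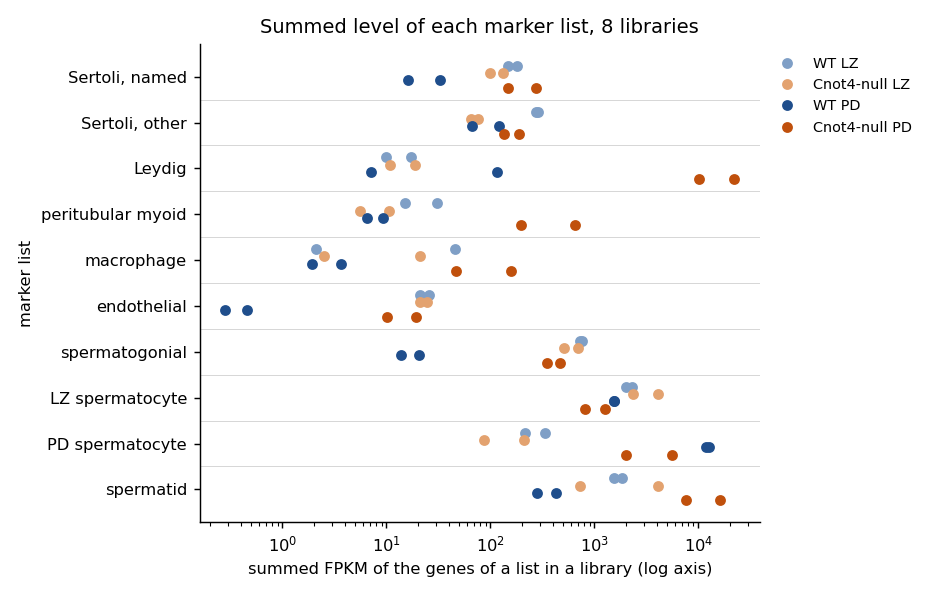
Summed FPKM of the genes of each marker list in each library, on a log axis, with 1 point per library and the groups by colour. Leydig cell markers summed to 10082 and 22306 FPKM in Cnot4-null PD and to at most 116 in the other 6 libraries, and the named Sertoli cell genes to 147 and 273 FPKM in Cnot4-null PD and 16.3 and 33.0 in WT PD.

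Among 9264 genes outside the lists with a mean of at least 5 FPKM, the profile closest to the mean of the 7 tested Sertoli cell genes was that of Wfdc10, with a Pearson correlation of 0.978 over the 8 libraries, which share 4 groups and are thus few independent points. Wfdc10 was at 25.6 and 44.4 FPKM in the WT LZ libraries, 8.48 and 9.23 in the Cnot4-null LZ libraries, 3.52 and 4.14 in the WT PD libraries, and 17.0 and 23.7 in the Cnot4-null PD libraries. The next were Tssc4, Mtch1, 1700011M02Rik, Hnrnpa1, Prdx2, Mt3, Decr1, Akt1s1 and Stk19, with correlations of 0.951 to 0.913. For Clu alone the closest profile was that of the defensin gene Defb19 (0.987), at 200 and 348 FPKM in the WT LZ libraries, 22.8 and 25.5 in the Cnot4-null LZ libraries, 40.4 and 92.6 in the WT PD libraries, and 640 and 1235 in the Cnot4-null PD libraries. Sod3 was closest to Gata4 (0.991), Rbck1 to Wt1 (0.993), Rabl2 to Sox9 (0.951), Hars to Cldn11 (0.964), Stra13 to Rhox8 (0.913) and Zc3h12a to Ctsl (0.995). Pofut2 was among the 3 closest genes of both Sox9 and Cldn11 (0.921 and 0.962).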

How the data were processed

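Per the submitters' processing notes, reads were mapped to mm9 with TopHat2 2.1.1 and quantified with Cufflinks 2.2.1, and the FPKM deposited by the authors, 1 value for a symbol in each library, were used without further scaling. Libraries were grouped by the genotype and stage in their labels. Genes above 1 FPKM in at least 1 library were tested on log2(FPKM + 1) with limma 3.58.1 in R 4.3.3 (a trend in the variance, 1 model of 4 groups, 4 residual degrees of freedom, two-sided, Benjamini-Hochberg within each of 5 contrasts). The procedure was tested on simulated data. Python 3.11.15 with numpy 2.4.6, pandas 2.3.3 and matplotlib 3.10.9 served for the rest.

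The alternatives were no filter, a pseudocount of 0.1, quantile normalization, libraries brought to equal medians, a replicate block and each library left out in turn. The lists were the named Sertoli cell genes, other Sertoli cell genes, sex determination, junctions, cathepsins and lysosome, hormone signalling, the Rhox cluster, and markers of Leydig, peritubular myoid, macrophage, endothelial and spermatogonial cells, of LZ and PD spermatocytes and of spermatids. Members and lists were chosen with earlier results of these data known. Genes named are Cnot4, genes of these lists and the genes with the most similar profiles (10 for the mean, 3 for a single gene, mean of at least 5 FPKM). Positions on mm9 come from GENCODE vM1 and promoters from RefSeq on GRCm38.p6. Depth was estimated from FPKM steps of single-transcript genes. The values of 1 listed gene are not reported here.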

Additional observations from a re-analysis of the deposited data

Results flagged for a closer look

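For 6 of the 7 tested Sertoli cell genes the difference between Cnot4-null and WT was not the same at both stages, by the interaction of genotype and stage in limma, with an adjusted p under 0.05. The filter favoured 2 of the 6, since Gata4 was tested only through Cnot4-null PD libraries and Wt1 only through WT LZ and Cnot4-null PD libraries, and with no filter Clu, Rhox8 and Sox9 were called. On the log2 scale the genotype effect at PD exceeded that at LZ by 6.48 for Clu, 2.99 for Rhox8, 2.44 for Gata4, 2.32 for Ctsl, 2.17 for Cldn11 and 1.55 for Wt1. The calls of Clu and Rhox8 held in each of the 13 alternatives, whereas those of Gata4, Ctsl, Cldn11 and Wt1 were each made in 2 of the 8 fits that left out 1 library, and that of Cldn11 in 0 of the 5 other alternatives. Among all tested genes 26% differed in this direction and 3.97% in the other, with a median of 0.64. Under quantile normalization the median was -0.13, with 9.74% in this direction and 12.4% in the other, and with equal medians it was -0.30, with 13.7% and 32.3%.

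None of these genes was called at LZ, and Cldn11 was not called at PD either (0.25, adjusted p = 0.664). At PD the sign of Wt1, Cldn11 and Rhox8 turned under quantile normalization (-0.15, -0.78 and -0.03), and that of Cldn11 and Rhox8 with equal medians (-0.29 and -0.19).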

How the results depend on the processing

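None of the Sertoli cell genes was called by limma at LZ under any of the 13 alternatives, against 4 of 7 at an unadjusted p under 0.05. At PD, 5 were called in Cnot4-null against WT, also with a pseudocount of 0.1 or a replicate block, 4 with no filter, 2 with quantile normalization, 3 with equal medians, and 3 to 5 when 1 library was left out, 3 without WT PD replicate 1 or 2. From LZ to PD, 6 were called in WT (3 to 7 with 1 library left out, 3 without WT PD replicate 1) and 3 in Cnot4-null (1 to 4, 1 without Cnot4-null LZ replicate 1). The interaction was called for 6, for 5 with a replicate block, 3 with no filter, 2 with quantile normalization (all tested genes 9.74% higher and 12.4% lower), 3 with equal medians (13.7% and 32.3%) and 2 to 7 with 1 library left out. It was called for 2 or 3 without any 1 of the WT LZ, Cnot4-null LZ or WT PD libraries. A lone library left in a group is assumed to vary like the other groups.

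With quantile normalization the PD genotype effect turned to -0.57 for Sox9, -0.15 for Wt1, -0.78 for Cldn11 and -0.026 for Rhox8, and the change from LZ to PD in Cnot4-null to -0.34 for Sox9 and -0.46 for Wt1. Equal medians gave -0.0056 for Sox9, -0.29 for Cldn11 and -0.19 for Rhox8 at PD. With 1 library left out, Ctsl at LZ ranged from -0.031 to 0.49 (lowest without Cnot4-null LZ replicate 1), and Cldn11 from -0.43 to 0.93 in the PD genotype effect and from -0.98 to 0.38 from LZ to PD in Cnot4-null (the low ends without Cnot4-null PD replicate 1, the high ends without replicate 2). The cause was not tested. Of the other single-gene results, 226 kept direction and side of the threshold with 1 library left out, 44 lost their call and 7 gained one, and 139, 23 and 4 did so under the other alternatives. Among all tested genes, the share of PD genotype calls that were higher was 78.3%, 41.0% with quantile normalization and 36.9% with equal medians, and the median log2 fold change 0.66, -0.10 and -0.21.

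How far libraries of the same number lay from the mean of their group correlated across genes by 0.194 between Cnot4-null LZ and PD and by -0.0651 to 0.0826 between other groups, and these libraries share a number only. Depth limits Sox9, Wt1, Gata4, Cldn11, Amh and Fshr, which rest on fewer than 40 estimated fragments in most libraries.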
